A study of Homo sapiens with 18 samples.

Results

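The 10 genes described here encode the E2F and DP transcription factors, namely the activators E2F1, E2F2 and E2F3, the repressors E2F4 to E2F8, and the DP partners TFDP1 and TFDP2. They were chosen by symbol, and all 10 were found among the 26668 gene symbols of the table and passed the filter on low values in every line. The libraries come from PANC1, MIA PaCa-2 and PATU8988T, established pancreatic cancer cell lines, with 3 control and 3 OFD1 knockdown libraries of each, 18 in all. The question was what OFD1 knockdown, 72 h after doxycycline was added, changed within each line. OFD1 is a protein of the centrosome and the base of the cilium.

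The knockdown samples are labelled shOFD1 with a doxycycline-induced knockdown. Control samples are titled shControl, with the genotype WT and no treatment, whereas the methods of the study describe Tet-on-shOFD1 cells of each line given DMSO or doxycycline. It was not settled which cells the controls were, and no library had doxycycline without OFD1 knockdown, so the drug, the shRNA and the loss of OFD1 cannot be told apart. Nothing in the labels says whether replicates were separate cultures, so p-values measure the spread between these libraries, which may be technical. For replicates 2 and 3 of PATU8988T, the cell line field of the labels differs from the title, and the title was followed.

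E2F proteins bind DNA as a dimer with a DP protein, except E2F7 and E2F8, which bind without one. In a resting cell the retinoblastoma protein holds the activators in check, while E2F4 and E2F5, bound to the related proteins p107 and p130, keep cell cycle genes silent, p130 and p107 doing so within the DREAM complex, whose core is MuvB. Cyclin-dependent kinases undo this late in G1, the activators then switch on genes of DNA synthesis, and E2F6, E2F7 and E2F8 help to silence these genes again. The activators and E2F7 and E2F8 are themselves cell cycle genes, whereas E2F4 is made throughout the cycle.

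Several members carry E2F-binding words in their own promoters, and the stretch that holds them is shown for each of the 6 members with a match. Whether a match goes with a change in level was not tested. RefSeq promoters of GRCh38.p14, from 250 bases before to 50 after the start of the gene, were searched for 8 members in 11 windows. No window of E2F5 or E2F8 was used, so nothing is said of words in their promoters. The words searched on both strands were TTTCCCG as well as TTTCGCG, and TTTGCCG as well as TTTGGCG, which are printed in capitals as they read on the strand of the gene. At least 1 of the 4 words was present in 8.69% of 27305 gene promoters, and at least 2 matches in 0.689%. These shares take 1 window per gene, whereas members were searched in all their windows.
E2F1, chr20:33686387-33686434, minus strand: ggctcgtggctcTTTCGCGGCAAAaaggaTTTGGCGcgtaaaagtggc
E2F2, chr1:23531257-23531302, minus strand: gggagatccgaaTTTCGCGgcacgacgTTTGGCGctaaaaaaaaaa
E2F3, first of 2 starts, chr6:20401815-20401858, plus strand: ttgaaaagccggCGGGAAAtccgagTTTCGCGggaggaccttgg
E2F6, chr2:11466221-11466356, minus strand: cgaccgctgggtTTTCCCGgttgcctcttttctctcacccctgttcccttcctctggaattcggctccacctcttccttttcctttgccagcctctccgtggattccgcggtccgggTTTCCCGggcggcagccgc
TFDP1, chr13:113584622-113584652, plus strand: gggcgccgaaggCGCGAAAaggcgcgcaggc
TFDP2, first of 3 windows, chr3:142149507-142149537, minus strand: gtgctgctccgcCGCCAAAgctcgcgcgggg

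E2F1 had 3 matches within the 37 bases before its start, of which TTTCGCG and, on the other strand, TTTGCCG overlap. E2F2 had 2 matches, the farther of them 57 bases before the start, and E2F3 had 2, the farther 52 bases before its first start. E2F6 also had 2 matches, both of TTTCCCG, but they lay 183 and 78 bases before the start. TFDP1 had 1 match and TFDP2 had 1, in 1 of its 3 windows and after the start. The windows of E2F4, E2F7 and the second start of E2F3 held none of the 4 words. The word TTTGAA, of the cell cycle element that MuvB reads, was present on either strand in 15.4% of promoters, with 1 window per gene. Among the members, searched in all their windows, it was in the first window of E2F3 and in both other windows of TFDP2. A match is a match of letters and not a binding site.

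Some facts of the whole series bear on all values. Expression is given as FPKM, reads on a gene scaled to its length and to the reads counted in the library, and between 32486479 and 39797537 reads were counted per library. Members had from 194 reads (E2F7, MIA PaCa-2 knockdown replicate 3) to 9017 (TFDP1, PATU8988T knockdown replicate 1). Gene lengths behind the PANC1 values differed from those of the other lines for many genes, so levels were compared within a line only. OFD1 itself fell in each line, with log2 fold changes of -1.07 (PANC1), -0.61 (MIA PaCa-2) and -1.10 (PATU8988T). MIA PaCa-2 control replicate 2 stood apart, with 36.9% of genes more than 0.5 log2 units from the other controls, against at most 5.92% in any other library, and values of MIA PaCa-2 without it are given beside the members' changes that it moves. Without it OFD1 fell by 0.76 in that line.

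The lines were checked against fixed markers. KRT8 and KRT18, keratins of epithelial cells, were at 316 FPKM or more in every library, but KRT19 was at or near 0 in PATU8988T and EPCAM in MIA PaCa-2. Of 7 markers of other cells, PECAM1, VWF, DCN, LUM and ALB were at most at 0.458 FPKM, and PTPRC, a marker of blood cells, was at 2.32 to 6.22 FPKM in MIA PaCa-2 and at most at 0.0773 FPKM elsewhere. The 7 markers summed, mostly CD68, ranged from 32.1 to 37.8 FPKM in the controls and from 17.4 to 19.7 FPKM in the knockdown of PANC1. In MIA PaCa-2 these sums were 49.3 to 67.4 and 73.3 to 77.2 FPKM, and in PATU8988T 13.7 to 13.9 and 9.83 to 11.7 FPKM. The 5 epithelial markers summed were lower after knockdown in MIA PaCa-2 (1616 to 2197 FPKM in the controls, 1359 to 1392 FPKM in the knockdown) and in PATU8988T (1045 to 1068 and 838 to 909 FPKM). In PANC1 these sums were 928 to 949 and 913 to 934 FPKM, and the markers moved in both directions. There, KRT19 fell by 0.997 on the log2 scale (adjusted p = 2.61e-09) and KRT18 by 0.06 (adjusted p = 0.0154). KRT8 rose by 0.26 (adjusted p = 1.46e-06) and EPCAM by 0.49 (adjusted p = 0.00015), and KRT7 was not called (adjusted p = 0.196). The part of these markers in the results was not tested.

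In PANC1, 6 of the 10 genes fell and 3 rose, against 32.2% of all genes tested that fell and 40.1% that rose at an adjusted p below 0.05 (limma on log2 of FPKM plus 0.1, Benjamini-Hochberg over 10902 genes). All 3 activators fell, as did E2F4, E2F7 and E2F8, while E2F5 and both DP partners rose and E2F6 was not called. The median log2 fold change of the members was -0.27, beside 0.06 for all genes tested. None of the 10 changed more than 2-fold, by limma or voom, a size that 6.6% of all genes reached with an adjusted p below 0.05.

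In MIA PaCa-2, 6 genes fell and 1 rose, against 21.7% and 18.7% of 10758 genes. E2F1, E2F2, E2F4, E2F7, E2F8 and TFDP1 fell and E2F5 rose, with a median of -0.58 over the 10 genes beside -0.03 for all. E2F8 fell and E2F5 rose by more than 2-fold, which 7.75% of all genes did. Without control replicate 2, 7 members fell and 2 rose, E2F3 and TFDP2 being added, against 39.8% and 35.4% of all genes in that fit. Leaving out any 1 of the 3 knockdown libraries lowered the fallen members from 6 to 4.

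In PATU8988T, none of the 10 genes fell and 5 rose, against 18.5% and 20.9% of 10698 genes. At an unadjusted p below 0.05, by voom on recovered reads and in every other setting tried, the count of fallen members was also 0. E2F1, E2F2, E2F4, E2F5 and TFDP1 rose, with a median of 0.19 over the 10 beside 0.03 for all genes. None changed more than 2-fold, as 1% of all genes did. With all 18 libraries in one fit, 3 rose, since E2F4 and E2F5 lost their calls (adjusted p = 0.182 and 0.159). That fit has one estimate of spread per gene for all lines, and MIA PaCa-2 control replicate 2 is part of it.

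**Figure D1:**
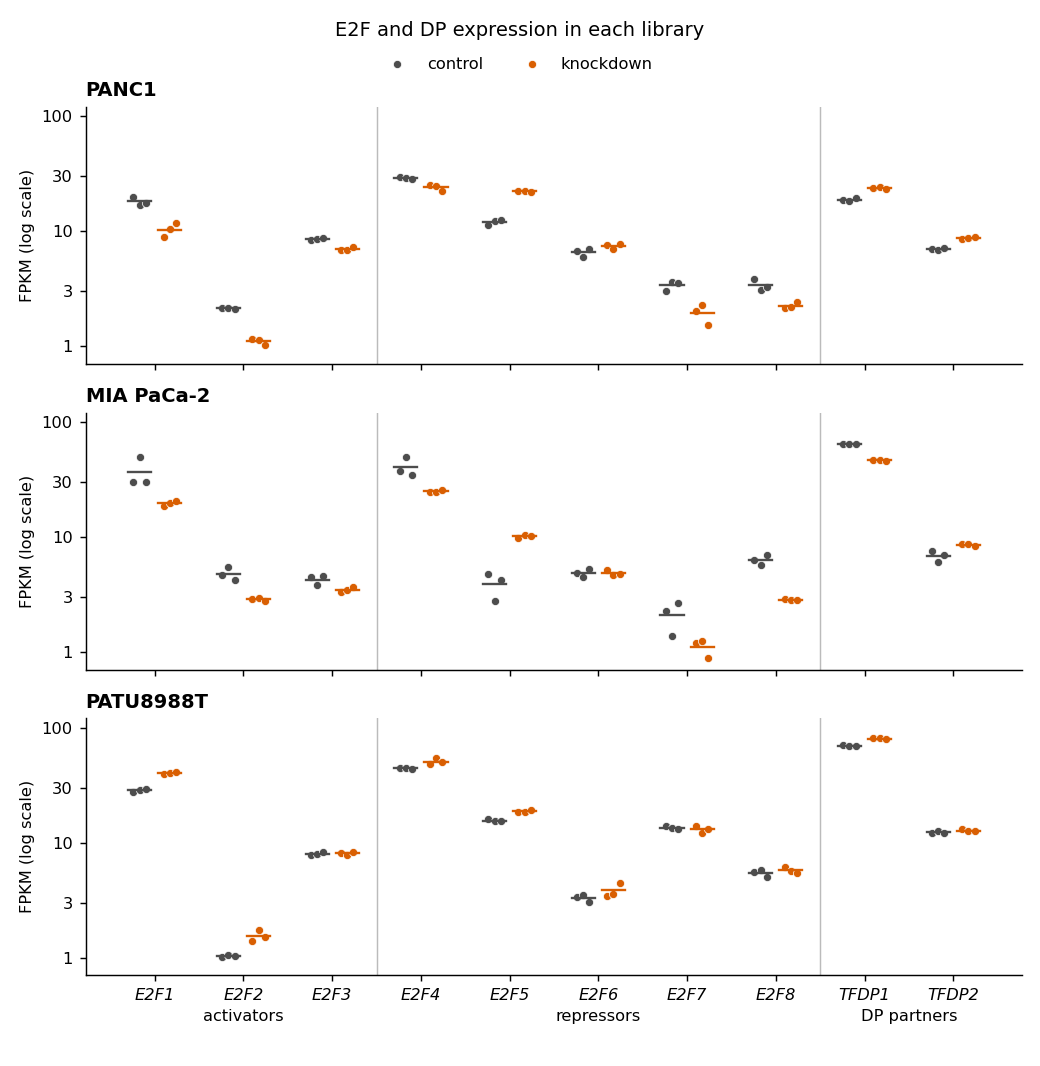
Expression of the 10 genes in every library, as FPKM on a log scale, in control (grey) and OFD1 knockdown (orange) libraries of each line, with a bar at the mean of 3. E2F4 was the highest E2F gene by mean in all 6 groups, and the MIA PaCa-2 control with the highest E2F1 value (49.5 FPKM) is replicate 2.

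E2F1, the activator best known for driving entry into S phase, lies on chromosome 20 (GRCh38, 33675683 to 33686404, minus strand). In PANC1 its controls had 19.8, 16.9 and 17.6 FPKM, and the knockdown libraries 8.88, 10.3 and 11.7 FPKM. Every knockdown library was below every control, with a log2 fold change of -0.82 (SE 0.0928, adjusted p = 2.42e-05). In MIA PaCa-2 the controls had 29.7, 49.5 and 29.8 FPKM and the knockdown libraries 18.5, 19.7 and 20.4 FPKM. The groups were again apart, but control replicate 2 was far above the other controls. The log2 fold change was -0.85 (SE 0.202, adjusted p = 0.0166), and -0.60 (adjusted p = 4.19e-06) without that control. Leaving out any 1 of the knockdown libraries instead ended the call, with adjusted p of 0.0656, 0.0596 and 0.0552. In PATU8988T the controls had 27.4, 28.7 and 29.3 FPKM and the knockdown libraries 39.3, 40.5 and 40.7 FPKM. Here all knockdown libraries were higher, with a log2 fold change of 0.49 (SE 0.0404, adjusted p = 2.40e-05).

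E2F2, a second activator, lies on chromosome 1 (23506430 to 23531220, minus strand) and had the lowest mean of the 8 E2F genes in PANC1 and PATU8988T. In PANC1 it had 2.13, 2.14 and 2.104 FPKM in the controls and 1.16, 1.12 and 1.01 FPKM in the knockdown, a log2 fold change of -0.90 (SE 0.110, adjusted p = 4.11e-05). In MIA PaCa-2 it had 4.67, 5.49 and 4.17 FPKM and then 2.90, 2.94 and 2.76 FPKM, a change of -0.71 (SE 0.127, adjusted p = 0.00588), or of -0.60 (adjusted p = 0.000121) without control replicate 2. In both lines the knockdown libraries lay below all controls. In PATU8988T the order was the opposite, with 1.01, 1.05 and 1.04 FPKM in the controls and 1.38, 1.75 and 1.498 FPKM in the knockdown. E2F2 rose there, by 0.53 on the log2 scale (SE 0.113, adjusted p = 0.00533).

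E2F3, the third activator, lies on chromosome 6 (20401906 to 20493715, plus strand), and its changes were smaller. In PANC1 it had 8.52 ± 0.193 FPKM in the controls and 6.98 ± 0.197 in the knockdown (SD, n = 3 each), and it fell by 0.28 on the log2 scale (SE 0.0524, adjusted p = 0.000718). In MIA PaCa-2 the value was close to this, -0.29 (SE 0.112), but was not called (adjusted p = 0.0820). Its MIA PaCa-2 libraries did not overlap, and without control replicate 2 E2F3 fell by 0.36 (adjusted p = 0.00116). In PATU8988T the control libraries had 7.82 to 8.27 FPKM and the knockdown libraries 7.85 to 8.27 FPKM, overlapping almost wholly (log2 fold change 0.02, SE 0.0517, adjusted p = 0.798).

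E2F4, the main E2F of the DREAM complex, lies on chromosome 16 (67192169 to 67198918, plus strand). In PANC1 the controls had 29.6, 28.96 and 28.1 FPKM and the knockdown libraries 25.3, 24.7 and 22.3 FPKM, and E2F4 fell by 0.26 on the log2 scale (SE 0.0492, adjusted p = 0.000805). In MIA PaCa-2 the controls had 37.4, 49.8 and 34.6 FPKM, against 24.4, 24.6 and 25.7 FPKM in the knockdown. All knockdown libraries were below the controls, and the highest control was again replicate 2. E2F4 fell by 0.69 (SE 0.140, adjusted p = 0.00936), or by 0.53 (adjusted p = 7.43e-06) without that library. PATU8988T controls had 44.5, 44.5 and 43.4 FPKM and the knockdown libraries 47.8, 53.8 and 49.96 FPKM, and E2F4 rose by 0.19 (SE 0.0469, adjusted p = 0.0102).

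E2F5, the other partner of p130, was the only member that rose in all 3 lines, except that its call in PATU8988T was lost with all 18 libraries in one fit. It lies on chromosome 8 (85177225 to 85217158, plus strand). In PANC1 the controls had 11.3, 12.1 and 12.4 FPKM and the knockdown libraries 22.2, 22.2 and 21.8 FPKM. The groups were far apart relative to their spread, with a log2 fold change of 0.88 (SE 0.0456, adjusted p = 7.00e-08). In MIA PaCa-2 the controls had 4.72, 2.76 and 4.202 FPKM and the knockdown libraries 9.80, 10.4 and 10.1 FPKM, a log2 fold change of 1.39 (SE 0.196, adjusted p = 0.00240). The lowest control was replicate 2, and without it the change was 1.16 (adjusted p = 6.21e-07), still more than 2-fold. In PATU8988T the values were 15.9, 15.3 and 15.3 FPKM and then 18.5, 18.4 and 19.0 FPKM. They did not overlap, and E2F5 rose by 0.27 (SE 0.0422, adjusted p = 0.001195). Exons of C8orf59 on the opposite strand overlap 16.3% of the 5928 exon bases of E2F5 in the annotation. The gene length behind the E2F5 values was 2096 bases, so the overlapped share of the bases counted is not known. Whether strand was used in counting is not given in the sources used here, so reads of the pair in that stretch may not have been told apart.

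E2F6, which silences genes with Polycomb proteins and without retinoblastoma proteins, was called in no line. It lies on chromosome 2 (11444375 to 11466177, minus strand), and 4 pseudogenes bear its name in the annotation, as 2 bear that of E2F3 and 1 that of E2F4. Whether reads were shared with them was not tested, and the values of these 3 genes are uncertain to that extent. Control and knockdown libraries overlapped in every line. The log2 fold changes were 0.18 in PANC1 (SE 0.0763, adjusted p = 0.0562), 0.00 in MIA PaCa-2 (SE 0.108, adjusted p = 0.982) and 0.20 in PATU8988T (SE 0.104, adjusted p = 0.160). In PANC1 the call depended on the setting, and 6 of 18 fits put it below 0.05.

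E2F7 and E2F8 are the atypical members that bind DNA without a DP protein, and both are repressors that follow the activators in the cycle. E2F7 lies on chromosome 12 (77021247 to 77065580, minus strand). In PANC1 it had 3.02, 3.57 and 3.50 FPKM in the controls and 2.02, 2.28 and 1.51 FPKM in the knockdown, a log2 fold change of -0.78 (SE 0.142, adjusted p = 0.000689). In MIA PaCa-2 it had 2.25, 1.36 and 2.66 FPKM and then 1.204, 1.23 and 0.876 FPKM, a change of -0.83 (SE 0.262, adjusted p = 0.0436). This call was the least steady of the falls, passing in 10 of 17 fits. Control replicate 2 was close to the knockdown libraries, and without it E2F7 fell by 1.10 (adjusted p = 0.000303). In PATU8988T its libraries overlapped, at 13.5 ± 0.362 and 13.1 ± 0.923 FPKM (SD, n = 3 each, adjusted p = 0.632).

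E2F8 lies on chromosome 11 (19224063 to 19241620, minus strand). In PANC1 it had 3.83, 3.08 and 3.23 FPKM in the controls and 2.12, 2.16 and 2.42 FPKM in the knockdown, a log2 fold change of -0.57 (SE 0.104, adjusted p = 0.000663). In MIA PaCa-2 it had 6.32, 5.64 and 6.90 FPKM and then 2.87, 2.81 and 2.84 FPKM. That was the largest fall of the 10 genes in any line with all libraries in the fit, -1.11 (SE 0.109, adjusted p = 0.000669), and control replicate 2 lay near the other controls. In PATU8988T the libraries overlapped, at 5.46 ± 0.396 and 5.74 ± 0.334 FPKM (SD, n = 3 each, adjusted p = 0.466).

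TFDP1, the DP partner with the higher level in every line, lies on chromosome 13 (113584721 to 113641470, plus strand). In PANC1 it had 18.4, 18.3 and 19.2 FPKM in the controls and 23.8, 24.2 and 23.2 FPKM in the knockdown, and it rose by 0.35 on the log2 scale (SE 0.0384, adjusted p = 1.92e-05). In MIA PaCa-2 it moved the other way, from 63.8, 64.3 and 64.5 FPKM to 46.4, 46.1 and 45.8 FPKM. This fall of 0.48 (SE 0.0604, adjusted p = 0.00159) was the same to 2 decimals without control replicate 2, which lay between the other controls. In PATU8988T TFDP1 had 71.0, 68.6 and 68.8 FPKM and then 80.4, 81.1 and 79.0 FPKM, and it rose by 0.21 (SE 0.0339, adjusted p = 0.00145).

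TFDP2, the second DP partner, lies on chromosome 3 (141944428 to 142149544, minus strand). In PANC1 it had 6.96 ± 0.0902 FPKM in the controls and 8.74 ± 0.174 in the knockdown (SD, n = 3 each), a rise of 0.32 on the log2 scale (SE 0.0502, adjusted p = 0.000218). In MIA PaCa-2 the controls had 7.51, 6.07 and 6.95 FPKM and the knockdown libraries 8.58, 8.67 and 8.31 FPKM. They did not overlap, but the change of 0.32 (SE 0.107) was not called (adjusted p = 0.0528), and control replicate 2 was the lowest library. Without it TFDP2 rose by 0.23 (adjusted p = 0.00326). In PATU8988T its libraries overlapped, with a log2 fold change of 0.05 (SE 0.0457, adjusted p = 0.461).

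**Figure D2:**
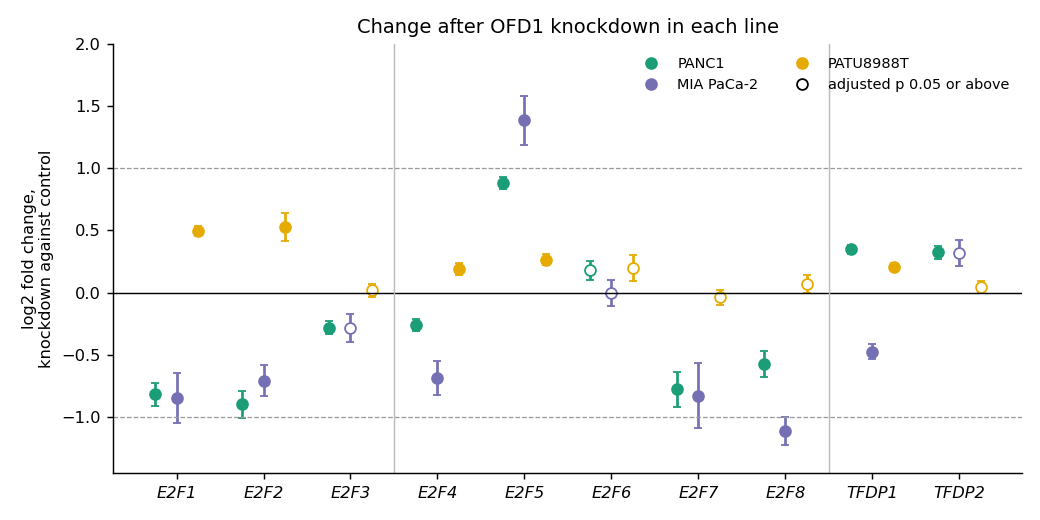
Log2 fold change of each gene after OFD1 knockdown, with limma's standard error, in PANC1 (green), MIA PaCa-2 (purple) and PATU8988T (yellow). Filled points have an adjusted p below 0.05, dashed lines mark a 2-fold change, and E2F5 is the only gene with filled points above 0 in all 3 lines.

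For a single gene, the smallest p of the exact permutation test (two-sided) was 0.1 at this sample size, and every gene whose groups did not overlap reached it. In bulk RNA, fewer cells at the stage of the cycle that makes a transcript and less of it per cell cannot be told apart.

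The balance within the family was then described from each library's FPKM, with no test. E2F4 held the largest share of the summed FPKM of E2F1 to E2F8 by mean in every group, from 31.6% in PANC1 knockdown to 39.3% in MIA PaCa-2 controls. The activators together held 34.003% to 35.7% in the PANC1 controls and 22.2% to 26.3% in the knockdown. In MIA PaCa-2 they held 41.1%, 47.9% and 41.8% in the controls and 36.3% to 37.7% in the knockdown, and in PATU8988T 30.3% to 32.6% and 34.9% to 35.4%. The activator share was thus lower after knockdown in every library of PANC1 and MIA PaCa-2 and higher in every library of PATU8988T. E2F1 made up most of it. By mean the share of E2F3 alone went the other way in MIA PaCa-2 (4.23% ± 0.991 and 4.96% ± 0.136) and PATU8988T (6.70% ± 0.241 and 5.72% ± 0.226, SD, n = 3 each). Shares of one sum depend on each other, and a larger share of E2F5 leaves less for the other genes.

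Of the 2 E2F genes that partner p130, E2F4 exceeded E2F5 in all 18 libraries, but by different amounts. In PANC1 the ratio of E2F4 to E2F5 was 2.42 ± 0.181 in the controls and 1.09 ± 0.0594 in the knockdown (SD, n = 3 each). In MIA PaCa-2 it was 7.94, 18.05 and 8.23 in the controls, the highest being replicate 2, and 2.37 to 2.55 in the knockdown. In PATU8988T it was 2.85 ± 0.0597 and 2.71 ± 0.191, and the groups overlapped. The share of E2F5 itself was 14.4% ± 0.929 in the PANC1 controls and 29.02% ± 0.194 in the knockdown. The corresponding shares were 3.94% ± 1.48 and 14.5% ± 0.363 for MIA PaCa-2, and 12.99% ± 0.314 and 13.2% ± 0.323 for PATU8988T (SD, n = 3 each).

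**Figure D3:**
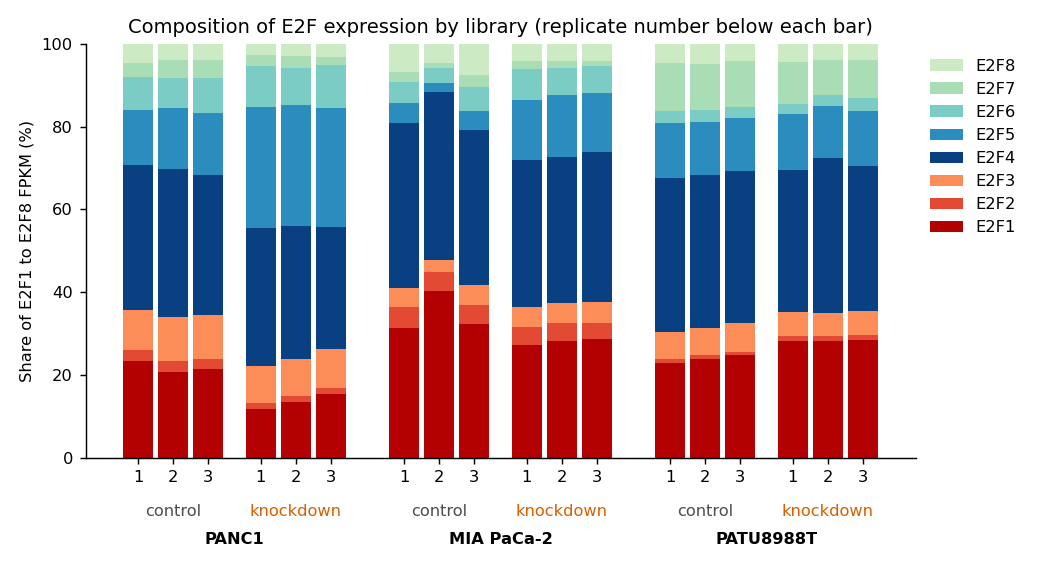
Share of the summed FPKM of E2F1 to E2F8 held by each gene, in percent, with 1 bar per library and the replicate number below it, activators in red tones and repressors in blue and green. E2F5 takes 28.8% to 29.2% in the PANC1 knockdown libraries against 13.4% to 15.03% in the controls.

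The order of the E2F genes by level also shifted. In the PANC1 controls the order by mean was E2F4, E2F1, E2F5, E2F3, E2F6, E2F8, E2F7 and E2F2, and the libraries of neighbours overlapped only for E2F8 and E2F7. After knockdown E2F5 passed E2F1 and E2F6 passed E2F3, though the libraries of E2F6 and E2F3 overlapped. In the MIA PaCa-2 controls E2F4 and E2F1 overlapped at the top, but only through replicate 2, where E2F1 had 49.5 FPKM. E2F4 exceeded E2F1 within each of these libraries. E2F6, E2F2 and E2F3 each overlapped with the next below, the last of these being E2F5, and E2F6 overlapped with E2F2 only through replicate 2. After knockdown E2F5 came next after E2F4 and E2F1 there, apart from its neighbours, with 10.1 ± 0.295 FPKM (SD, n = 3). In PATU8988T the order, E2F4, E2F1, E2F5, E2F7, E2F3, E2F8, E2F6 and E2F2, was the same in both groups. The ratio of TFDP1 to TFDP2 was 2.68 ± 0.0355 in the PANC1 controls and 2.72 ± 0.1004 in the knockdown, 9.45 ± 1.07 and 5.41 ± 0.0980 for MIA PaCa-2, and 5.65 ± 0.232 and 6.32 ± 0.155 for PATU8988T (SD, n = 3 each).

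Whether the changes themselves differed between lines was tested with interaction terms, all 18 libraries and 10697 genes entering the model. PANC1 and PATU8988T differed for 9 of the 10 genes, against 35.8% of all genes, and MIA PaCa-2 and PATU8988T for 9, against 51.1%. PANC1 and MIA PaCa-2 differed for 4, against 43.2%. E2F6 was the gene that did not pass in either comparison with PATU8988T.

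In PANC1 the differences from PATU8988T were largest for E2F2 and E2F1. The change of E2F1 was 1.31 log2 units lower in PANC1 (SE 0.208, adjusted p = 0.000140) and that of E2F2 1.43 lower (SE 0.142, adjusted p = 1.37e-06). In MIA PaCa-2 they were lower than in PATU8988T by 1.34 (adjusted p = 6.38e-05) and 1.24 (adjusted p = 3.01e-06). The rise of E2F5 was larger than in PATU8988T by 0.62 in PANC1 (SE 0.178, adjusted p = 0.0130) and by 1.12 in MIA PaCa-2 (SE 0.178, adjusted p = 8.12e-05). Without MIA PaCa-2 control replicate 2 the same 9 genes differed between MIA PaCa-2 and PATU8988T, and the order of the values changed. E2F8 then differed most, by -1.26 (-1.18 with that library), E2F2 by -1.14, E2F1 by -1.10 and E2F7 by -1.06 (-0.79 with it), while E2F5 differed by 0.90. Some differences between PANC1 and PATU8988T were unsteady, and those of TFDP1, E2F7, TFDP2 and E2F3 passed in 8, 10, 15 and 17 of 23 fits. The interaction model has one estimate of spread per gene for all lines, and MIA PaCa-2 control replicate 2 is part of it. PANC1 and PATU8988T were not compared without that library. In the pairs with MIA PaCa-2, the SE of E2F5 was 0.178 with it and 0.0701 without it. The count of 9 between PANC1 and PATU8988T fell to between 5 and 7 when any 1 of the 12 libraries of these lines was left out. It was 5 without PATU8988T control replicate 2 and without PATU8988T knockdown replicate 3.

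PANC1 and MIA PaCa-2 differed most for TFDP1, by 0.82 (SE 0.0516, adjusted p = 1.14e-08), since it rose in the first and fell in the second. E2F8 and E2F4 fell less in PANC1, by 0.54 (adjusted p = 0.00449) and 0.42 (adjusted p = 0.0197), and E2F5 rose less, by 0.50 (adjusted p = 0.0323). Without MIA PaCa-2 control replicate 2 these 4 genes still differed, with smaller values for E2F4 (0.27) and E2F5 (-0.28). Of the 23 fits tried, the difference of E2F5 passed in 14 and that of E2F4 in 21. Those of E2F8 and TFDP1 passed in every fit that held them. For E2F1 the difference was 0.03 with a 95% interval from -0.41 to 0.47, and for E2F3 0.00 with an interval from -0.21 to 0.21, and both intervals span either direction.

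**Figure D4:**
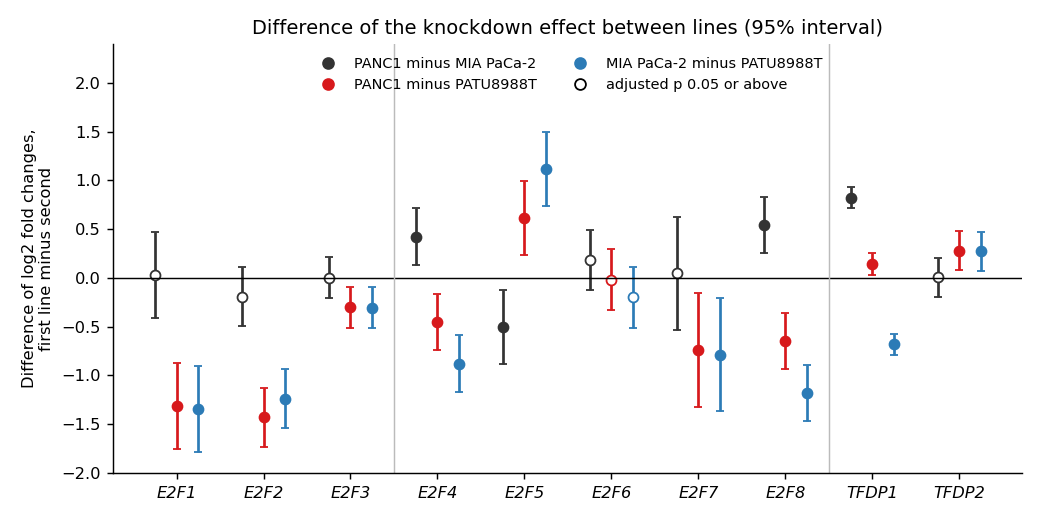
Difference of the log2 fold change between each pair of lines, first line minus second, with its 95% interval, for the 10 genes. Filled points have an adjusted p below 0.05, and the activators lie below 0 in both comparisons with PATU8988T and on both sides of 0 or close to it between PANC1 and MIA PaCa-2.

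The genes around the members were read from 4 lists that share some genes. Of 53 G1/S genes that E2F factors are known to control, all tested in every line, 47 fell and 4 rose in PANC1. Of all genes, 32.2% fell and 40.1% rose there, and the list's median log2 fold change was -0.84 beside 0.06 for all. In MIA PaCa-2 43 fell and none rose (median -0.66 beside -0.03), where 21.7% of all genes fell and 18.7% rose. The count of 0 rises also held at an unadjusted p below 0.05 and by voom. In PATU8988T 2 fell and 25 rose (median 0.14 beside 0.03), where 18.5% of all genes fell and 20.9% rose. The lowest adjusted p in PANC1 were those of TYMS (-1.08), which makes thymidylate, ATAD2 (-1.49), a chromatin ATPase, and RRM2 (-1.97), a subunit of ribonucleotide reductase. In MIA PaCa-2 they were those of GINS2 (-1.57) and PCNA (-1.15), of the replication fork, and UHRF1 (-1.53), which keeps up DNA methylation. In PATU8988T BRCA1, of DNA repair, fell by 1.22, as it did by 1.66 in PANC1 and by 1.18 in MIA PaCa-2, while CDC25A, a phosphatase that activates cyclin-dependent kinases, and UNG, a uracil glycosylase, rose by 0.59 and 0.42.

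Of 18 genes that control the retinoblastoma proteins, 8 fell, 5 rose and 3 were not called of the 16 tested in PANC1, where 32.2% of all genes fell and 40.1% rose. There, CCND1 and CDK6, a cyclin and a kinase that inactivate the retinoblastoma protein, fell by 0.87 and 1.06, and CDKN1A, the inhibitor p21, rose by 0.65. In MIA PaCa-2 7 fell and 2 rose of 15 tested, where 21.7% of all genes fell and 18.7% rose. CDKN1A rose there by 2.95 (SE 0.197, adjusted p = 0.000202), while the inhibitor CDKN2C and the cyclin CCND3 fell by 0.98 and 1.06. In PATU8988T 1 fell and 8 rose of 18, where 18.5% of all genes fell and 20.9% rose. The rises were led by the inhibitor CDKN2B (0.79), the phosphatase CDC25A (0.59) and the kinase CDK2 (0.22). CDKN2A and CDKN2B were below the level for testing in PANC1 and MIA PaCa-2. The cyclin CCND2 rose by 1.76 in PANC1 (adjusted p = 8.23e-06) and was not called in PATU8988T (adjusted p = 0.553). In MIA PaCa-2 CCND2 was below the level for testing, with means of 0.0795 FPKM in the controls and 1.34 FPKM in the knockdown.

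Of 7 genes for MuvB and the proteins tied to it, PANC1 had 3 that fell and 3 that rose, MIA PaCa-2 had 2 that fell, and PATU8988T had 3 that rose. Of all genes, 32.2% fell and 40.1% rose in PANC1, 21.7% fell in MIA PaCa-2 and 20.9% rose in PATU8988T. MYBL2, the B-MYB factor that joins MuvB once E2F repression ends, fell by 1.13 in PANC1 and by 0.40 in MIA PaCa-2 (adjusted p = 0.0453) and rose by 0.30 in PATU8988T. In PANC1 the MuvB subunit LIN37 rose by 0.51 and DYRK1A, the kinase that promotes DREAM assembly, by 0.32. LIN52, the subunit that kinase acts on, fell by 0.67 in PANC1 (adjusted p = 0.00152) and by 0.47 in MIA PaCa-2 and rose by 0.39 in PATU8988T, where the MuvB subunit RBBP4 rose by 0.22. LIN37 in MIA PaCa-2 had a value of 0.33 (adjusted p = 0.0757).

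Of 11 partners of E2F6, 1 fell and 6 rose in PANC1, and 3 rose in PATU8988T. MIA PaCa-2 had 1 that fell and 1 that rose, where 21.7% of all genes fell and 18.7% rose. The rises stand beside 40.1% of all genes in PANC1 and 20.9% in PATU8988T, and the fall in PANC1 beside 32.2%. Nothing particular to the list is read from these counts. L3MBTL2, a Polycomb protein found with E2F6, rose in PANC1 (0.36) and PATU8988T (0.35) and had a value of -0.44 in MIA PaCa-2 (adjusted p = 0.0544). RING1 and MAX rose by 0.23 and 0.31 in PANC1. HDAC1, a histone deacetylase, fell by 0.32 and RNF2, the paralogue of RING1, rose by 0.78 in MIA PaCa-2, and in PATU8988T HDAC2 and HDAC1 rose by 0.20 and 0.12. Without MIA PaCa-2 control replicate 2, 50 of the G1/S genes, 10 of the retinoblastoma list, 5 of the MuvB list and 6 of the E2F6 partners fell in that line and 0, 3, 1 and 2 rose, where 39.8% of all genes fell and 35.4% rose. Without any 1 of its knockdown libraries, the fallen genes of the 4 lists together numbered 34 or 35 in place of 51.

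**Figure D5:**
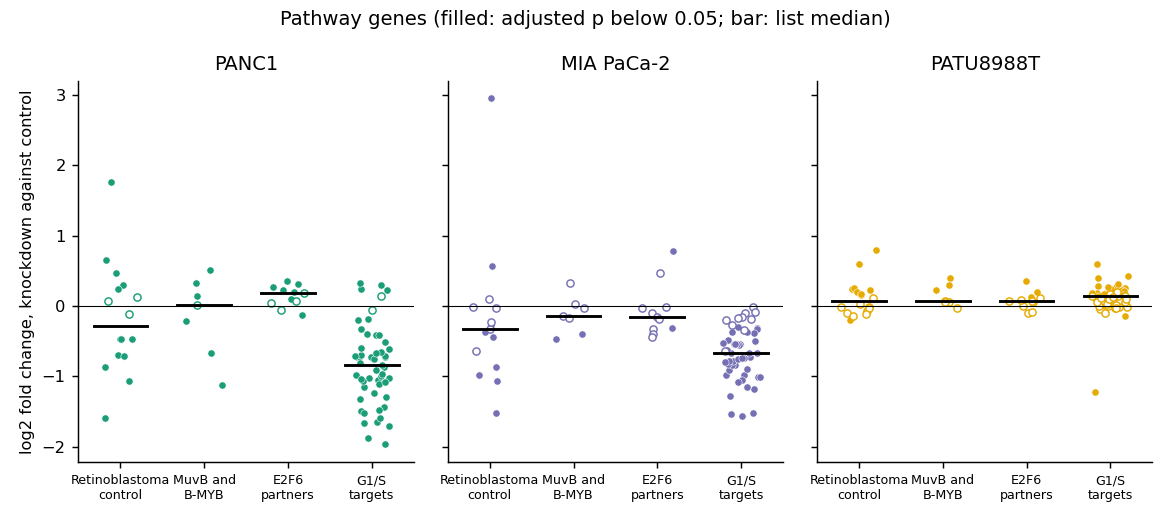
Log2 fold change after OFD1 knockdown of each tested gene of 4 lists in each line, with filled points for an adjusted p below 0.05 and a bar at the median of the list. The G1/S bar lies at -0.84 (PANC1), -0.66 (MIA PaCa-2) and 0.14 (PATU8988T).

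Last, the genes with a pattern nearest to that of E2F1 and E2F4 were sought among 9083 genes tested in all 3 lines, by the distance over the 18 libraries between log2 values set relative to the control mean of each line. Nearest to E2F1 were WDR62, a spindle pole protein (distance 0.540), TNFRSF12A, a receptor of the tumor necrosis factor family (0.581), and WDR4, part of a tRNA methyltransferase (0.585), where the median gene was at 2.47. All 3 fell in PANC1 and MIA PaCa-2 and rose in PATU8988T, which follows from choosing them by nearness to E2F1 and is no separate result. Nearest to E2F4 were NUP85, of the nuclear pore (0.237), PSMC4, of the proteasome (0.252), and SLC1A5, a glutamine transporter (0.276), with the median gene at 1.66. The deviation of MIA PaCa-2 control replicate 2 is part of these distances.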

How the data were processed

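RNA was sequenced from 3 control and 3 OFD1 knockdown libraries of each of 3 lines. According to the methods of the study, HISAT2 was the aligner and HTSeq-count the counter. The build and annotation are not given in the sources used here with a role, and labels and methods name different RNA and library kits. The authors deposited FPKM values, already scaled by gene length and by the reads counted. Whole reads per gene, and depth, were recovered from the steps of these values for all genes above 0. The main test was limma 3.58.1 in R 4.3.3 on log2(FPKM + 0.1), per line, for genes averaging 1 FPKM or more over its 6 libraries, with trended variance and Benjamini-Hochberg adjustment over all genes of the line. The pseudocount of 0.1 makes the fold changes of low genes smaller than those of their FPKM. Differences between lines were tested by interaction terms, with all 18 libraries fitted together. Both fits were tested on simulated data. SEs and intervals (95%) are limma's.

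Alternatives were the pseudocount, filter, scaling, variance model, a joint fit, a replicate block, voom on recovered reads, and leaving out each library. Members and lists were chosen with earlier results of these data known. Genes named are the members, OFD1, the 3 lowest adjusted p of each list and line, the 3 nearest patterns for E2F1 and E2F4, and fixed markers. CCND2, CDKN2A and C8orf59 were added. Positions are from GENCODE on GRCh38.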

Additional observations from a re-analysis of the deposited data

Results flagged for a closer look

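The change after knockdown differed between lines, by the interaction test at an adjusted p below 0.05, in 22 of 30 comparisons of a gene between a pair of lines. Of all 10697 genes, 43.2% differed between PANC1 and MIA PaCa-2, 35.8% between PANC1 and PATU8988T, and 51.1% between MIA PaCa-2 and PATU8988T. The 4 of 10 members that differed in the first of these pairs are near the share of all genes. In PANC1 minus MIA PaCa-2 the differences of log2 fold changes were 0.42 for E2F4, -0.50 for E2F5, 0.54 for E2F8 and 0.82 for TFDP1. In PANC1 minus PATU8988T they were -1.31 for E2F1, -1.43 for E2F2, -0.30 for E2F3, -0.45 for E2F4, 0.62 for E2F5, -0.74 for E2F7, -0.64 for E2F8, 0.14 for TFDP1 and 0.28 for TFDP2. In MIA PaCa-2 minus PATU8988T they were -1.34 for E2F1, -1.24 for E2F2, -0.31 for E2F3, -0.88 for E2F4, 1.12 for E2F5, -0.79 for E2F7, -1.18 for E2F8, -0.68 for TFDP1 and 0.27 for TFDP2. The pairs share lines, so these values are not independent of each other. The log2 fall of OFD1 itself was smaller in MIA PaCa-2 than in PANC1, by 0.46 (adjusted p = 0.0341). Without MIA PaCa-2 control replicate 2 it was smaller by 0.31 (adjusted p = 0.0449). The gene length behind the OFD1 values was 4150 bases for PANC1 but 9312 bases for MIA PaCa-2. Whether this unequal length affects the comparison of OFD1 was not tested. The part of OFD1 in the differences of the members was not tested either.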

How the results depend on the processing

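Every member had 194 reads or more in every library. Counting error weighs most on the members with the fewest reads. Its part in the spread between the 3 libraries of a group was not measured. Of the fold changes of members under the alternatives, 468 kept their direction and side of the threshold, 12 lost a call, 15 gained one and 5 changed sign, and of the differences between lines 561, 61, 0 and 32 did so. The cause of these changes was not tested, except that a filter at a mean FPKM of at least 5 drops low genes, and the lower members then numbered 3 (PANC1) and 3 (MIA PaCa-2).

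Members higher in MIA PaCa-2 numbered 2 instead of 1 with all 18 libraries in one fit, with libraries centred on the median gene, with quantile normalization, with no trend and by voom, and 1 to 2 when 1 library was left out. Pathway genes higher in MIA PaCa-2 numbered 6 in one fit of all libraries and 2 to 6 with 1 library left out, against 3. In that one fit, members higher in PATU8988T numbered 3 against 5 and pathway genes higher there 20 against 37. Members that differed between PANC1 and PATU8988T numbered 5 to 7 with 1 library left out, against 9.

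Sign changes were of values that the reported tests did not call. E2F6 in MIA PaCa-2 was 0.035 with centring and -0.063 to 0.058 with 1 library left out, and E2F7 in PATU8988T was -0.085 to 0.016 with 1 library left out. For PANC1 minus MIA PaCa-2, E2F1 was -0.010 with centring, -0.20 with quantile normalization and -0.21 to 0.16 with 1 library left out. E2F3 there was -0.021 with a pseudocount of 1, -0.039 with centring, -0.017 by voom and -0.042 to 0.080 with 1 library left out. E2F7 was -0.040 with a pseudocount of 1 and -0.14 to 0.32 with 1 library left out, and TFDP2 was -0.034 with centring, -0.016 by voom and -0.061 to 0.091 with 1 library left out. For PANC1 minus PATU8988T, E2F6 was 0.00013 with a pseudocount of 1 and -0.088 to 0.096 with 1 library left out.

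Replicate numbers are shared between groups, but deviations of same-numbered libraries correlated only from -0.11 to 0.13, and 3 of 9 matched their own number best, so the numbers were not taken as pairs. With the replicate number as a block, the members that differed between PANC1 and PATU8988T numbered 5 in place of 9, those between MIA PaCa-2 and PATU8988T 7 in place of 9, without E2F7 (adjusted p = 0.0534) and TFDP2 (adjusted p = 0.0609), and those between PANC1 and MIA PaCa-2 3 in place of 4, without E2F5 (adjusted p = 0.0536). E2F7 in MIA PaCa-2 was not called (adjusted p = 0.0701) and E2F6 in PANC1 was (adjusted p = 0.0222). No other member's call within a line changed under the block.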
